A study of Mus musculus with 9 samples.

Results

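Gene expression in mouse macrophages grown with lipocalin 2 (LCN2) from the first day of culture was compared with that in macrophages grown with vehicle. The comparison used 6 of the study's 9 arrays, the 3 titled as LCN2 from day 0 and the 3 titled as vehicle, and all 19505 genes that carried a single symbol on the array. For the 55 genes with several probe sets, the brightest was taken. Bone marrow cells of wild-type C57BL/6 mice were cultured for 7 days in 10% serum with M-CSF, the colony-stimulating factor that macrophages need, stated as 10 ng/ml in the growth protocol and as 20 ng/ml in the series text. Recombinant interleukin 4 (IL-4) at 20 ng/ml was then given for 24 h to the vehicle cells and to the LCN2 cells alike. The LCN2 cells had 150 ng/ml recombinant mouse LCN2 in the medium during the 7 days of growth, and the labels do not say whether it stayed during the 24 h with IL-4. A further 3 arrays held cells first given LCN2 on day 7, with no stated dose. They entered the estimate of the spread and a direct test against the day 0 arrays. Nothing in the labels ties the arrays of a group to separate animals or dishes. The p-values thus measure the spread between these samples only, and that spread may be technical.

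LCN2 is a small secreted protein of neutrophil granules, macrophages and epithelia that captures bacterial iron carriers and so limits the iron that microbes can use. IL-4 drives macrophages through the transcription factor STAT6 into an alternatively activated state with high arginase and mannose receptor, and it raises MHC class II molecules and, with time, lets macrophages fuse into giant cells. Marrow cultures begin with progenitors, monocytes and granulocyte precursors, so the RNA of a dish is a mixture. In such bulk samples, fewer cells of a type and less RNA per cell cannot be told apart.

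All values are log2 expression levels, and every difference is LCN2 from day 0 minus vehicle on the log2 scale. The labels number the arrays of each group 1 to 3, and differences within equal numbers are given in that order. The arrays numbered 1 stood apart in all 3 groups along the first principal component, which held 62.5% of the variance. Array medians lay between 5.60 and 5.69, and no pair of arrays held identical values. Macrophage genes were bright: Csf1r, the M-CSF receptor, averaged 12.08 ± 0.05 (SD, n = 3) with vehicle and 12.01 ± 0.05 (SD, n = 3) with LCN2, and Adgre1, the F4/80 antigen, averaged 11.81 and 11.81. Of the markers of lymphoid cells, 14 of 15 for T and NK cells and 11 of 12 for B and plasma cells lay below the dim floor of 5.66.

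Over the 10042 genes above that floor, limma called 0 genes at an adjusted p under 0.05 (percent called 0), and the lowest adjusted p was 0.999. At an unadjusted p under 0.05 it placed 100 genes lower (0.996%) and 42 higher (0.418%) with LCN2. With the array number as a block in the model it also called 0, with 332 lower (3.31%) and 165 higher (1.64%) at an unadjusted p under 0.05 and a lowest adjusted p of 0.44. All the values below are therefore differences that did not pass the test across genes. The differences were small, with a median size of 0.085, and 61 genes differed by 0.5 or more, 46 of them lower and 15 higher. Both groups separated without overlap for 345 genes lower (3.44%) and 206 higher (2.05%), and all 3 same-number differences had the same sign for 1547 genes lower (15.4%) and 1185 higher (11.8%). The mean difference lay below 0 for 54.8% of the genes and above 0 for 45.2%, around a median of -0.015.

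The MHC class II genes lay lower on the arrays of cells grown with LCN2. These genes encode the molecules that display peptides to helper T cells and the factors that load them, and the list also holds their coactivator Ciita. All 7 tested members had a mean difference below 0 (54.8% of all genes), from -0.67 for H2-Ab1 to -0.38 for H2-DMb2. Their median was -0.58 where all tested genes had -0.015. Of the 7, 4 separated the groups without overlap (3.44% of all genes did so in this direction) and 6 were lower in all 3 same-number differences (15.4%). An unadjusted p under 0.05 was reached by 6 of them (0.996%) and by 7 with the array number as a block (3.31%), and 0 passed after adjustment over all genes. The median within numbers 1, 2 and 3 was -0.70, -0.67 and -0.48. The 6 members other than Ciita had a median of -0.58 and were lower at every number.

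Promoters of class II genes are known for a pair of sequence elements, the X and Y boxes, which bind the RFX complex and NF-Y and so recruit the coactivator CIITA. RefSeq promoters of GRCm38.p6, from 250 bases before to 50 after the start, were at hand for 5 of the 7 tested members. Searched on both strands, the letters CNNATGATG of the X box occurred in 2.75% of all promoters, the letters TGATTGG of the Y box in 7.82%, and both together in 0.174%, which was 57 promoters of 32851. Both searches were independent, so matches could overlap. Both were found in the promoters of H2-Eb1, H2-DMb1 and H2-DMb2, in H2-Aa only the Y letters were found, and H2-DMa, which also lay lower, held neither in this window. Of the 8236 tested genes with a promoter, 1.76% held the X letters, 11.9% the Y letters and 0.255% both. The windows are shown because these 4 genes lay lower together; capitals mark the matches, X before Y, and a match describes the letters and not binding.
H2-Eb1, chr17:34305765-34305827, plus strand: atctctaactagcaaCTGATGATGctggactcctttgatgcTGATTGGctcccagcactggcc
H2-DMb1, chr17:34153086-34153149, plus strand: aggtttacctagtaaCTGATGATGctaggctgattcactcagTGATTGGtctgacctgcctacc
H2-DMb2, chr17:34145115-34145178, plus strand: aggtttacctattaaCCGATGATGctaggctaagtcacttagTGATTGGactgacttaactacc
H2-Aa, chr17:34287852-34287888, minus strand: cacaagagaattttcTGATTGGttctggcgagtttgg

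Among the chains of the class II molecules themselves, H2-Ab1, the beta chain of I-A, read 10.96, 10.20 and 10.21 on the vehicle arrays and 10.20, 9.54 and 9.62 on the LCN2 arrays. The array numbered 1 was the brightest of each group, and the LCN2 array numbered 1 lay just under the lowest vehicle arrays, so the groups met without overlapping. The difference was -0.67 ± 0.25 (SE, n = 3 per group), 1.59-fold lower. H2-Aa, the alpha chain of I-A, read 11.03, 10.33 and 10.36 with vehicle and 10.34, 9.64 and 9.99 with LCN2. Here the LCN2 array numbered 1 lay within the vehicle range, while each LCN2 array was below the vehicle array of its number (differences -0.70, -0.70 and -0.38). H2-Eb1, annotated as an E beta chain, read 9.52, 8.63 and 8.48 with vehicle and 8.98, 7.86 and 7.95 with LCN2. The groups overlapped through the bright arrays numbered 1, and the same-number differences were -0.54, -0.77 and -0.52. Cd74, the invariant chain, was not analysed here.

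Among the peptide-loading genes, the spread between arrays was small. H2-DMa, which encodes the alpha chain of the loading factor DM, read 9.24, 9.14 and 8.84 with vehicle and 8.67, 8.46 and 8.36 with LCN2. All 3 LCN2 arrays lay below all 3 vehicle arrays, with a difference of -0.58 ± 0.15 (SE, n = 3 per group). H2-DMb1, a DM beta chain, read 11.01, 10.67 and 10.59 and 10.44, 10.24 and 10.11, again without overlap, for a difference of -0.49 ± 0.14. H2-DMb2, a further DM beta chain, read 8.28, 7.96 and 8.06 and 7.56, 7.82 and 7.78, with the largest same-number difference at number 1 (-0.72, -0.15 and -0.28). H2-DMb1 and H2-DMb2 are close copies, so their probes may share signal. The remaining members on the array, H2-Oa, H2-Ob and H2-Eb2, were dim in both groups, with vehicle means of 5.46, 5.56 and 4.17 and LCN2 means of 5.24, 5.44 and 4.19.

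**Figure D1:**
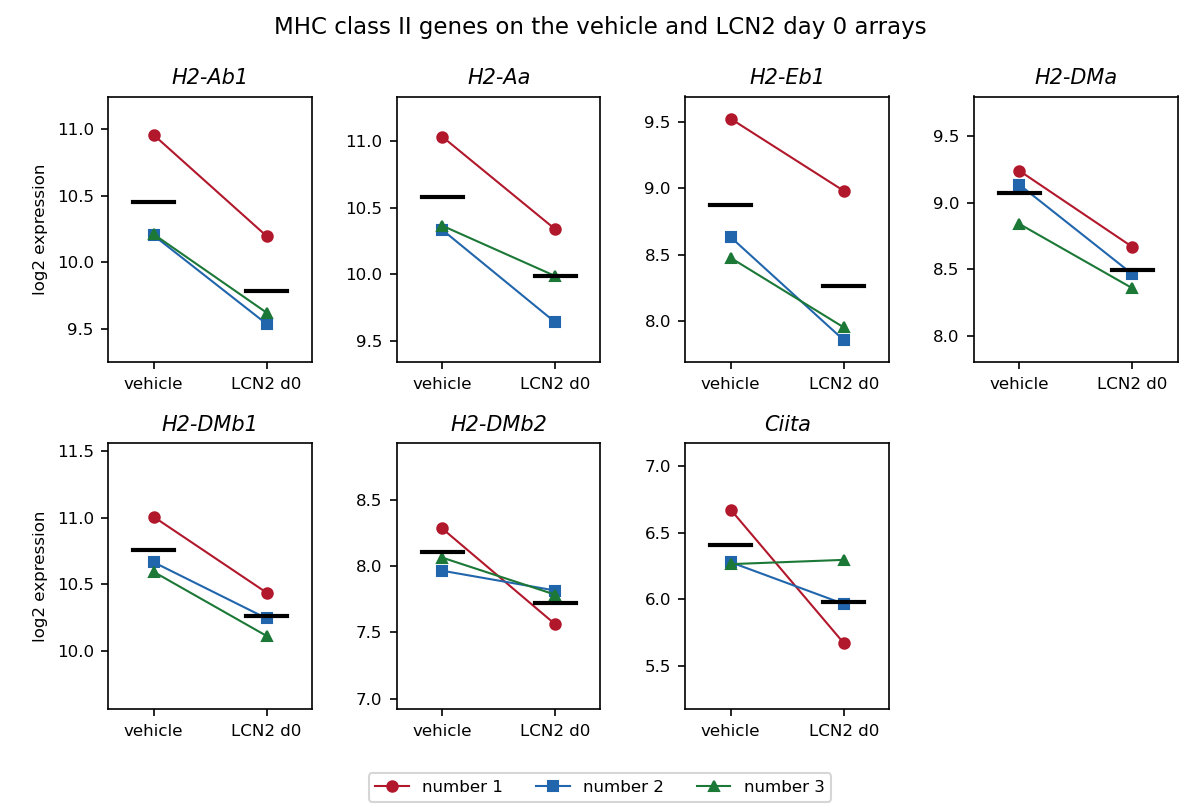
Log2 expression of the 7 tested MHC class II genes on the vehicle and LCN2 day 0 arrays. Lines join arrays of the same title number and black bars are group means; all lines slope down except that of Ciita at number 3, where the difference was 0.03.

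Ciita, the coactivator on which class II transcription depends, averaged 6.40 ± 0.23 (SD, n = 3) with vehicle and 5.98 ± 0.31 (SD, n = 3) with LCN2. It read 6.67, 6.28 and 6.26 and 5.67, 5.96 and 6.29, so the LCN2 array numbered 1 was the lowest of the 6 and that numbered 3 lay within the vehicle range. The same-number differences were -1.003, -0.31 and 0.03, with the sign turned at number 3. Those of the other tested class II genes were below 0 at every number. The Ciita value of 5.67 on the LCN2 array numbered 1 lay close to the dim floor, so it is read with little signal over background. The part of Ciita in the class II values was not tested. Of 12 tested transcription factors that act on class II promoters, Ciita among them, 9 lay below 0 (54.8% of all genes), with a median of -0.08. Nfyb, a subunit of NF-Y, read 7.78, 7.78 and 7.84 with vehicle and 7.12, 7.72 and 7.62 with LCN2, all 3 LCN2 arrays below the vehicle arrays. Rfx5, the DNA-binding subunit of RFX, differed by -0.23 ± 0.16 (SE, n = 3 per group) with a same-number difference above 0 at number 2, and Rfxank, another RFX subunit, differed by 0.19 ± 0.16.

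Dendritic cells also carry much MHC class II. The mean level of 19 dendritic cell markers was 6.47 to 6.51 on the vehicle arrays and 6.39 to 6.44 on the LCN2 arrays. Of these markers 10 were tested, 6 of which lay below 0 (54.8% of all genes), with a median of -0.10. All 3 same-number differences were lower for 4 of the 10 (15.4%) and higher for 0 (11.8%), the groups lay apart for 2 (3.44%), and 3 reached an unadjusted p under 0.05 in the lower direction with the array number as a block (3.31%). Flt3, a defining receptor of dendritic cell precursors, was dim at 4.19 with vehicle and 4.16 with LCN2. Itgax, the CD11c integrin chain that macrophages also carry, read 11.61, 11.16 and 10.84 with vehicle and 11.50, 10.51 and 10.46 with LCN2, with overlapping groups and same-number differences of -0.11, -0.65 and -0.38. The part of these markers in the class II values was not tested. On the arrays numbered 1, over all groups, the class II genes were brighter than on the others by a median of 0.17. Leaving out vehicle replicate 1, which unbalances the numbers, moved the list's median to -0.36, and leaving out any other vehicle or LCN2 day 0 array left it between -0.69 and -0.43.

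The MHC class I pathway, which displays peptides to cytotoxic T cells, lay slightly lower. Of 16 tested genes 15 were below 0 (54.8% of all genes), with a median of -0.13, and 4 separated the groups (3.44%). Psmb9, an immunoproteasome subunit, read 8.46, 8.33 and 8.47 with vehicle and 8.23, 8.16 and 7.98 with LCN2, without overlap, for a difference of -0.30 ± 0.12 (SE, n = 3 per group). H2-K1, the classical class I heavy chain, differed by -0.17 ± 0.10 with overlapping groups, and H2-Q4, a non-classical heavy chain, differed by 0.13, -0.52 and -0.54 within the numbers. Heavy chain genes of class I resemble each other, so their probes may share signal.

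Antiviral genes that type I interferon switches on also lay lower. Of 20 tested genes, 19 were below 0 (54.8% of all genes), with a median of -0.28, and 5 separated the groups (3.44%). All 3 same-number differences were below 0 for 10 genes (15.4%) and above 0 for 1 (11.8%). Without Mx2, which had a group mean below the dim floor, 18 of 19 were below 0 and the median was -0.27. An unadjusted p under 0.05 was reached by 5 in the lower direction (0.996%) and by 9 with the array number as a block (3.31%). The median was -0.07 within number 1, -0.36 within number 2 and -0.28 within number 3.

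The response is known to act through an element called the ISRE. The letters GAAANNGAA, searched on both strands, occurred in 8.56% of all RefSeq promoters and in 9 of the 13 tested list members that had one. The windows of the pair of genes with the largest mean differences are shown, with the matches, here as the reverse complement, in capitals.
Rsad2, chr12:26456548-26456586, minus strand: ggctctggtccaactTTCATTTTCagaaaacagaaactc
Ifit3, chr19:34583359-34583450, plus strand: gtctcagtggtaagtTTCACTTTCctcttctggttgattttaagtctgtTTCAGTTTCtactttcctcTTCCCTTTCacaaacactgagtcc

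Rsad2 encodes viperin, an enzyme that makes a chain terminator of viral RNA synthesis. It read 6.78, 6.98 and 6.32 with vehicle and 6.04, 6.07 and 5.80 with LCN2, so that all LCN2 arrays lay below the vehicle arrays. The difference was -0.72 ± 0.23 (SE, n = 3 per group), 1.65-fold lower. Ifit3, an interferon-induced protein that binds other IFIT proteins, read 6.25, 6.81 and 6.46 and 6.08, 5.67 and 6.01. The groups did not overlap, and most of the difference came from number 2 (-0.17, -1.14 and -0.45). Zbp1, a sensor of Z-form nucleic acids, read 6.37, 6.36 and 6.37 with vehicle, the tightest of these groups, and 5.73, 5.88 and 6.07 with LCN2. The lowest LCN2 readings of Rsad2, Ifit3 and Zbp1, at 5.80, 5.67 and 5.73, lay close to the dim floor. The differences of these genes are thus read with little signal over background. Bst2, which tethers budding virus to the cell, differed by -0.02, -0.34 and -1.02 within the numbers, and Cmpk2, a mitochondrial nucleotide kinase that neighbours Rsad2, differed by 0.12, -0.63 and -1.01. Both were close to or above 0 at number 1.

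The list's median ranged with single arrays. Without vehicle replicate 2 it was -0.12, without LCN2 day 0 replicate 1 it was -0.14, and it reached -0.45 without vehicle replicate 1, against -0.36 when the arrays numbered 1 were left out of all groups. On those arrays the list was dimmer than on the others, by a median of -0.40. A list of GTPases of the interferon gamma response, which attack the vacuoles of microbes, had 6 of 6 tested members below 0 (54.8% of all genes). Their median was -0.22, and 2 of them were lower in all 3 same-number differences (15.4%). One of the 6, Irf1, at -0.06, is not a GTPase, and 7 of the list's 13 genes on the array were dim. Igtp differed by 0.10, -0.72 and -0.67 within the numbers and Gbp7 by -0.79, -0.18 and -0.06, so the largest difference of each lay at another number. Irgm1 read 8.72, 8.64 and 8.59 with vehicle and 8.52, 8.58 and 8.11 with LCN2, with the groups apart and most of the difference at number 3.

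Genes for the fusion of macrophages into giant cells and osteoclasts held several of the largest differences. Of 15 tested members 12 lay below 0 (54.8% of all genes), with a median of -0.14; 8 were lower in all 3 same-number differences (15.4%) and 0 were higher in all 3 (11.8%). The groups separated for 2 genes (3.44%), Dcstamp and Ocstamp, and an unadjusted p under 0.05 was reached by 1 gene (0.996%) and by 5 with the array number as a block (3.31%). The sizes were uneven, from -0.87 for Dcstamp to 0.06 for the highest member.

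Dcstamp and Ocstamp encode related multipass membrane proteins that are required for fusion. Ocstamp read 9.03, 9.88 and 9.79 with vehicle and 8.17, 8.996 and 8.93 with LCN2. Each LCN2 array lay below all vehicle arrays, and the same-number differences of -0.85, -0.89 and -0.86 were almost equal, although the arrays numbered 1 were the dimmest of both groups. Dcstamp read 9.24, 8.55 and 8.59 with vehicle and 8.11, 7.73 and 7.93 with LCN2, where the arrays numbered 1 were the brightest. Its difference was -0.87 ± 0.19 (SE, n = 3 per group) and that of Ocstamp -0.87 ± 0.43, each 1.83-fold lower.

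Acp5, the tartrate-resistant acid phosphatase that marks osteoclasts, read 11.05, 8.75 and 8.89 with vehicle and 10.51, 7.87 and 8.01 with LCN2. The array numbered 1 was brighter than the others by more than the difference between groups, so the groups overlapped, while the same-number differences were -0.53, -0.88 and -0.88. Tm4sf19, a tetraspan membrane protein of multinucleate cells, differed by -0.67, -0.21 and -0.46. Mmp9, a matrix protease of osteoclasts and of neutrophil granules, read 9.06, 6.29 and 5.70 and 7.45, 6.07 and 5.54, and its difference of -0.66 rested on number 1. Cttn, cortactin of the actin-rich podosomes by which such cells attach, differed by -0.74, -0.65 and -0.54, from 6.66 ± 0.99 (SD, n = 3) to 6.02 ± 0.91 (SD, n = 3). Without vehicle replicate 1 the difference of Acp5 was -0.02 and that of Cttn -0.07, and without LCN2 day 0 replicate 1 they were -1.62 and -1.16.

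On the arrays numbered 1 the fusion list was brighter than on the others by a median of 0.41. Its median within numbers 1, 2 and 3 was -0.35, -0.02 and -0.17. Leaving out single arrays moved it from -0.55 without LCN2 day 0 replicate 1 to 0.01 without vehicle replicate 1, by way of -0.33 without vehicle replicate 3 and -0.26 without vehicle replicate 2. With the arrays numbered 1 left out of all groups it was -0.16.

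**Figure D2:**
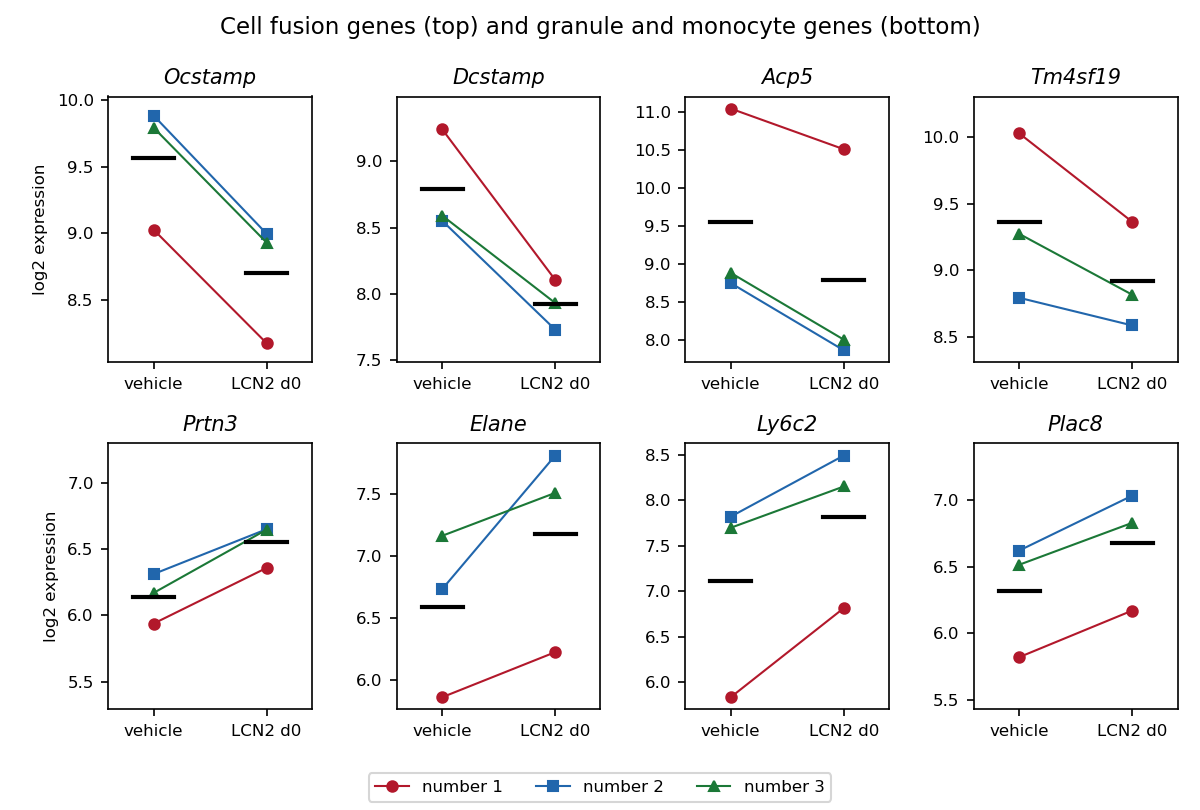
Log2 expression of 4 fusion and osteoclast genes and of 4 granule and monocyte genes on the vehicle and LCN2 day 0 arrays, with lines joining equal title numbers and black bars for group means. The fusion genes slope down at each number, by about -0.87 on average for Ocstamp and Dcstamp, and the others slope up, by 0.36 for Plac8 to 0.70 for Ly6c2.

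Beyond these families, 12 genes in each direction were named by the size of their weakest same-number difference, a choice made on this contrast, so their values are a description. The lower set reached a weakest difference of -0.53 or beyond and the higher set 0.36 or beyond. Ocstamp, Dcstamp, Acp5, Cttn and H2-Ab1, described above, were among the lower set.

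The rest of the lower set included secreted and surface proteins. Edn1, the precursor of the vasoconstrictor peptide endothelin-1, read 8.05, 7.28 and 7.39 with vehicle and 7.19, 6.46 and 6.65 with LCN2. The groups did not overlap, and the difference of -0.81 had an SD of 0.06 over the 3 numbers. Edn1 also had the lowest adjusted p of the blocked model (0.44), whose spread is estimated from the arrays of all 3 groups. Pla2g7, the phospholipase that inactivates platelet-activating factor, had the largest mean difference of all genes, -1.14, which was -0.54 without vehicle replicate 1 and -1.99 without LCN2 day 0 replicate 1. It read 10.20, 8.38 and 8.39 with vehicle and 9.53, 6.89 and 7.12 with LCN2, and the array numbered 1 was so much brighter that the groups overlapped. Lrrc32, which holds latent TGF-beta at the cell surface, read 6.87, 6.13 and 6.49 and 6.27, 5.35 and 4.84, with the largest difference at number 3 and the LCN2 mean of 5.49 below the dim floor.

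Axl, a receptor tyrosine kinase for the uptake of apoptotic cells, differed by -0.66, -1.08 and -0.70, from 8.42 ± 1.03 (SD, n = 3) with vehicle to 7.60 ± 0.89 (SD, n = 3) with LCN2. Its arrays numbered 1 were dim, not bright, and the groups overlapped. The difference was -1.40 without vehicle replicate 1 and -0.30 without LCN2 day 0 replicate 1. Pros1, which encodes the bridging protein S, read 8.92, 8.90 and 9.08 with vehicle and 8.42, 8.70 and 8.68 with LCN2 without overlap. Gas6, another bridging protein of the list, differed by 0.29, with a 95% interval from -0.18 to 0.77. The clearance list as a whole lay on both sides of 0, with 7 of 17 tested members below 0 and a median of 0.04, and Stab1, a scavenger receptor for exposed phosphatidylserine, differed by 0.53, 0.21 and 0.18. Gpc1, the heparan sulphate proteoglycan glypican 1, differed by -0.60, -0.83 and -0.89, and its mean difference was -0.32 without vehicle replicate 1 and -1.32 without LCN2 day 0 replicate 1.

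Taf7, a TATA-binding protein associated factor of the TFIID complex, had the smallest p of all genes in the model with no block. It read 5.90, 5.78 and 6.04 with vehicle and 5.31, 5.18 and 5.37 with LCN2, 1.54-fold lower without overlap, but close to the dim floor, which its LCN2 mean did not reach. The other 12 tested TFIID genes had a median of -0.06. Inpp5f, a phosphoinositide phosphatase, read 7.58, 7.60 and 7.53 with vehicle and 7.01, 6.98 and 6.74 with LCN2. Its groups did not overlap, and it differed by -0.66 ± 0.14 (SE, n = 3 per group).

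The smallest p-values of the blocked model added Efr3b, F7 and Nes. F7, coagulation factor VII, read 10.04, 9.40 and 9.61 with vehicle and 9.12, 9.01 and 8.94 with LCN2. The groups lay apart, with the largest difference at number 1 (-0.93, -0.38 and -0.68). Nes, the intermediate filament nestin, read 7.81, 7.58 and 7.65 and 7.08, 7.11 and 7.04, with a spread within each group that was small beside the difference. Efr3b, an anchor of the lipid kinase PI4K at the plasma membrane, differed by -1.03, -0.52 and -0.73. Growth factor genes with separate groups included Fgfr1, a fibroblast growth factor receptor, at -0.69 ± 0.18 (SE, n = 3 per group), and Pdgfa, a platelet-derived growth factor chain, at -0.42 ± 0.12. Nes and Fgfr1 are also markers of stromal cells. Of 18 such markers 12 were dim, and their mean level was 5.02 to 5.26 on the vehicle arrays and 4.94 to 5.13 on the LCN2 arrays. Acta2, smooth muscle actin and another of them, differed by 0.39, 0.25 and 0.65, and the part of such cells in these values was not tested.

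In the higher direction, Gja1, the gap junction protein connexin 43, had the largest weakest difference. It read 5.30, 5.98 and 6.06 with vehicle and 5.89, 6.93 and 7.14 with LCN2, so that the dim LCN2 array numbered 1 lay within the vehicle range, and the same-number differences were 0.60, 0.95 and 1.09. Ift88, a component of the intraflagellar transport that builds cilia, read 5.40, 5.66 and 5.44 and 5.88, 6.26 and 6.18. All LCN2 arrays lay above all vehicle arrays, though the vehicle arrays were at or near the dim floor. Of 20 tested intraflagellar transport genes, 16 lay above 0 (45.2% of all genes), with a median of 0.05. Without Ift88, whose vehicle mean lay below the floor, 15 of 19 lay above 0, the median was again 0.05 and 1 gene separated the groups (2.05%), Ift27, which differed by 0.62, 0.27 and 0.22.

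Arap2, a regulator of the small GTPase ARF6, read 5.45, 6.34 and 6.41 with vehicle and 6.73, 6.72 and 6.78 with LCN2, almost equal across the LCN2 arrays and lowest on the vehicle array numbered 1. Htra4, a secreted serine protease, differed by 0.53, 0.58 and 0.50 with overlapping groups, and Hook3, a dynein adaptor, by 0.53, 0.37 and 0.39. Fbln5, an elastic fibre protein, differed by 0.48, 0.54 and 0.38, Ptgfrn by 0.48, 0.38 and 0.71, Tmem154 by 0.39, 0.57 and 0.51, and Eogt, which adds a sugar to EGF repeats, by 0.56, 0.41 and 0.36. For all of these except Arap2 the spread between the array numbers was wide enough for the groups to overlap. The blocked model added Ulk1, Rab32 and Havcr2. Ulk1, the kinase that starts autophagy, read 5.80, 5.75 and 5.66 with vehicle and 6.37, 6.33 and 5.93 with LCN2. Its groups did not overlap, though the vehicle arrays were at or near the dim floor. Rab32 differed by 0.34, 0.52 and 0.49, and Havcr2, the inhibitory receptor TIM-3, by 0.71, 0.34 and 0.30.

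**Figure D3:**
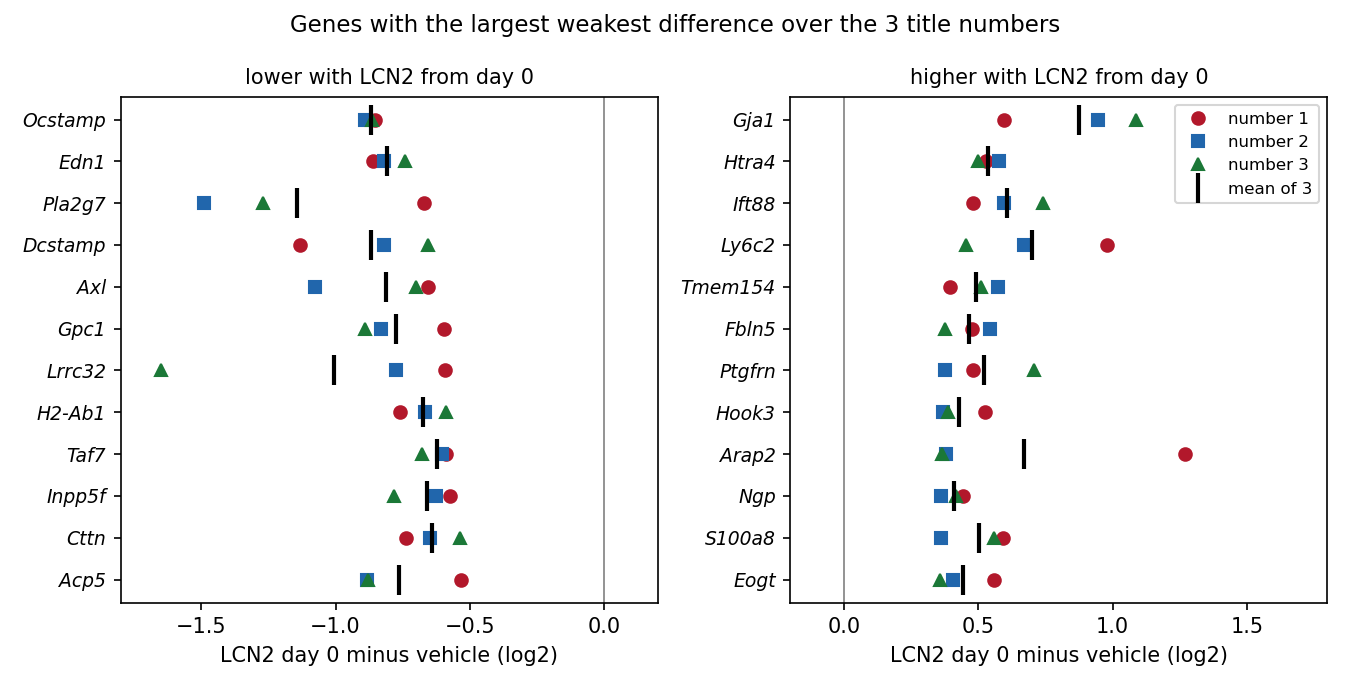
Same-number differences (LCN2 day 0 minus vehicle, log2) of the 12 lower and 12 higher genes with the largest weakest difference; coloured points are numbers 1 to 3 and black bars their mean. Points of Ocstamp and Edn1 lie close together, while those of Pla2g7, Lrrc32 and Arap2 (0.36 to 1.27) are spread out.

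Markers of the cells from which macrophages arise lay mostly higher with LCN2 from day 0. Of 9 tested monocyte markers 8 were above 0 (45.2% of all genes), with a median of 0.16, and 6 were higher in all 3 same-number differences (11.8%). The groups separated for 0 of them (2.05%), and 0 were higher at an unadjusted p under 0.05 in limma without the block (0.418%). Ly6c2, the Ly6C antigen of inflammatory monocytes, read 5.83, 7.82 and 7.69 with vehicle and 6.81, 8.49 and 8.15 with LCN2. The arrays numbered 1 were far dimmer than the others, so the groups overlapped, and the same-number differences were 0.98, 0.67 and 0.45. Ly6c1, a near copy that probes may not tell from it, differed by 0.24, 0.39 and 0.44, and Plac8, a small protein of myeloid precursors, by 0.35, 0.41 and 0.32.

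Granule genes of neutrophil precursors were read by class, with no test between the classes. Of 5 tested azurophil granule genes, 3 lay above 0 (45.2% of all genes), with a median of 0.41. Serpinb1a and Ctsc, the other members, lay at -0.03 and -0.01. Prtn3, proteinase 3, read 5.94, 6.31 and 6.17 with vehicle and 6.36, 6.65 and 6.65 with LCN2, and the groups did not overlap (2.05% of all genes in this direction). Elane, neutrophil elastase, read 5.86, 6.73 and 7.16 and 6.22, 7.81 and 7.51, higher at each number but overlapping, and Mpo, myeloperoxidase, differed by 1.18, 0.77 and -0.16, with the sign turned at number 3. Among 9 tested genes of the specific and gelatinase granules, the median was 0.15 and 7 lay above 0 (45.2%). The lowest was Mmp9, described above, at -0.66. Ngp, a neutrophil granule protein, differed by 0.44, 0.36 and 0.42 and Ltf, the iron-binding lactoferrin, by 0.34, 0.49 and 0.52. S100a8, a calprotectin subunit and a marker of mature neutrophils, differed by 0.59, 0.36 and 0.56. Of the 6 tested markers of mature neutrophils, 2 were higher in all 3 same-number differences (11.8%), and the median was 0.06.

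All 7 tested progenitor markers, which share Elane and Mpo with the granule list, lay above 0 (45.2% of all genes), with a median of 0.32. Meis1, a homeodomain factor of stem cells, read 5.49, 5.63 and 5.55 with vehicle and 5.85, 5.88 and 5.88 with LCN2, apart, but its vehicle mean lay below the dim floor. Without it the other 6 had a median of 0.21, and 2 of them were higher in all 3 same-number differences (11.8%). Gfi1, a repressor that directs granulocyte fate, differed by 0.01, 0.48 and 0.57. Kit, the stem cell factor receptor, and Flt3 were dim in both groups. The mean level of the 12 progenitor markers was 5.28 to 5.82 on the vehicle arrays and 5.54 to 5.94 on the LCN2 arrays, so those ranges overlapped.

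Dim and thus untested were 8 of 17 monocyte markers on the array, 3 of 8 azurophil granule genes and 5 of 12 progenitor markers. These lists also varied with the array number. Over all groups the arrays numbered 1 differed from the others by a median of -0.69 for monocyte markers, -0.33 for azurophil granule genes and -0.45 for progenitor markers. Within numbers 1, 2 and 3 the medians with LCN2 were 0.07, 0.24 and 0.19 for monocyte markers, 0.20, 0.51 and 0.09 for progenitor markers without Meis1, and 0.36, 0.34 and -0.0028 for azurophil granule genes. Without vehicle replicate 1 the monocyte median was -0.04 and the azurophil median -0.02, and without LCN2 day 0 replicate 1 they were 0.39 and 0.51. With Meis1 included, the progenitor median lay between 0.23 and 0.35 when single arrays were left out. Cell cycle genes, which differed by array number by -1.10, had a median of 0.07 with LCN2 and 1 of 25 tested members higher in all 3 same-number differences (11.8%). Their medians within the numbers, -0.19, 0.31 and 0.05, had both signs, and the median was -0.26 without vehicle replicate 1 and 0.55 without LCN2 day 0 replicate 1.

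Arg1, Retnla, Chil3 and Mrc1, IL-4 effector genes that define alternative activation, differed by 0.18 or less. The other members of the list lay on both sides of 0, most of them lower. The intervals of Arg1, Retnla and Chil3 were wide in the model with no block. Arg1, arginase 1, averaged 11.64 ± 0.35 (SD, n = 3) with vehicle and 11.72 ± 0.60 (SD, n = 3) with LCN2, and its same-number differences of -0.21, 0.29 and 0.15 had both signs. Retnla, the secreted protein RELMalpha, differed by -0.12 ± 0.30 (SE, n = 3 per group), Chil3, a chitinase-like protein, by 0.18 ± 0.59, and Mrc1, the mannose receptor, by 0.15 ± 0.13. The 95% intervals of that model ran from -0.57 to 0.73 for Arg1, -0.80 to 0.55 for Retnla, -1.15 to 1.51 for Chil3 and -0.14 to 0.45 for Mrc1. With the array number as a block they ran from -0.26 to 0.42, -0.43 to 0.18, -0.05 to 0.41 and -0.14 to 0.45. Of 25 tested effectors 18 lay below 0 (54.8%) and 7 above, with a median of -0.12, and 8 were lower in all 3 same-number differences (15.4%). The groups separated in the lower direction for 1 of them (3.44%). Within numbers 1, 2 and 3 the median was -0.33, -0.06 and -0.07, so it was lowest at number 1. The lowest member, named after its values were seen, was Socs2, a suppressor of cytokine signalling, which differed by -0.34, -0.92 and -1.06 within the numbers.

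Ccl17, a chemokine for T helper cells that IL-4 induces, read 5.99, 5.90 and 6.47 with vehicle and 5.60, 5.75 and 5.83 with LCN2. The groups lay apart, with a difference of -0.39 ± 0.17 (SE, n = 3 per group). Il27ra, the interleukin 27 receptor chain, differed by -0.35, -0.58 and -0.65, Matk, a kinase that restrains SRC kinases, by -0.65, -0.15 and -0.40, and F13a1, the A chain of coagulation factor XIII, by -0.03, 0.36 and 0.71. Of the 17 tested genes of IL-4 signalling 14 lay below 0 (54.8%), with a median of -0.05. That median was 0.005 without vehicle replicate 1 and -0.15 without LCN2 day 0 replicate 1. Stat6 itself differed by -0.12 ± 0.11, and Irf4, an IL-4 induced factor that also acts on class II promoters, by -0.87, 0.00 and -0.59, with no difference at number 2. The effector median was 0.06 without vehicle replicate 1 and -0.26 without LCN2 day 0 replicate 1, and the list was brighter by 0.48 on the arrays numbered 1.

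Macrophage identity genes showed no common direction, with 13 of 21 below 0 (54.8%) and a median of -0.03. Cd81, a tetraspanin, read 11.21, 11.29 and 11.57 with vehicle and 11.44, 11.87 and 11.99 with LCN2, higher at each number. C1qa, a chain of complement C1q, read 10.64, 10.83 and 10.57 and 10.44, 10.55 and 10.19, lower without overlap.

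Lcn2 itself, read as the cells' own transcript and not as the added protein, was 8.24, 10.56 and 10.29 with vehicle and 8.85, 10.82 and 10.62 with LCN2. The arrays numbered 1 were dimmer by more than the difference between groups, which was 0.40 ± 0.70 (SE, n = 3 per group), and the same-number differences were 0.61, 0.27 and 0.33. Of its proposed receptors, Lrp6, a coreceptor for Wnt proteins, read 8.37, 8.24 and 8.43 with vehicle and 8.42, 8.55 and 8.45 with LCN2, with overlapping groups. Others were dim: Slc22a17, the 24p3 receptor, averaged 5.17 with vehicle and 5.40 with LCN2, and Lrp2, megalin, averaged 4.57 and 4.50. The iron genes had 14 of 26 tested members below 0 (54.8%) and a median of -0.01. Slc40a1, the iron exporter ferroportin, read 7.09, 8.21 and 7.98 and 7.72, 8.40 and 8.90, higher at each number (0.62, 0.19 and 0.91) with overlapping groups. Tfrc, the transferrin receptor, differed by 0.07, 0.46 and -0.02 and Hmox1, the haem oxygenase that frees iron from haem, by 0.08, 0.19 and 0.25.

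Antioxidant genes lay slightly higher and sterol synthesis genes slightly lower. Of 30 tested NRF2 target and glutathione genes 21 lay above 0 (45.2%), 12 were higher in all 3 same-number differences (11.8%) and the median was 0.07. Gclm, the modifier subunit of glutamate-cysteine ligase, differed by 0.47, 0.12 and 0.50, Gsto1, a glutathione transferase, by 0.20, 0.42 and 0.08, and Nfe2l2, which encodes NRF2, by -0.21, -0.10 and -0.18. Without LCN2 day 0 replicate 1 the median was -0.003.

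Of 21 tested sterol synthesis genes 18 lay below 0 (54.8%), 7 were lower in all 3 same-number differences (15.4%) and the median was -0.10, or 0.01 without vehicle replicate 1. Its values within numbers 1, 2 and 3, -0.25, 0.08 and -0.15, did not share a sign. Hmgcs1, the synthase before HMG-CoA reductase, differed by -0.51, -0.16 and -0.39, Insig1, a sterol-responsive brake on the pathway, by -0.37, -0.15 and -0.32, and Mvk, mevalonate kinase, by -0.07, -0.56 and -0.38. Fatty acid synthesis had 8 of 13 tested members below 0 (54.8%) and a median of -0.09, with Elovl6, a fatty acid elongase, at -0.51, -0.09 and -0.71 within the numbers. Apoe, a carrier of cholesterol out of macrophages, read 11.47, 12.13 and 12.11 with vehicle and 11.37, 11.68 and 11.55 with LCN2. The sterol list was brighter by 0.35 on the arrays numbered 1.

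Genes of energy metabolism had medians near that of all genes. Glycolysis genes had a median of 0.02, with Hk2, a hexokinase, at -0.33 ± 0.13 (SE, n = 3 per group) and with separate groups. Respiratory chain genes had a median of 0.01, with 9 of 33 lower in all 3 same-number differences (15.4%), among them Uqcrfs1, the Rieske protein of complex III, at -0.27, -0.13 and -0.28. Ribosomal protein genes, which are bright and steady, had a median of 0.00, and 3 of 21 had the same sign at all numbers (27.2% of all genes).

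**Figure D4:**
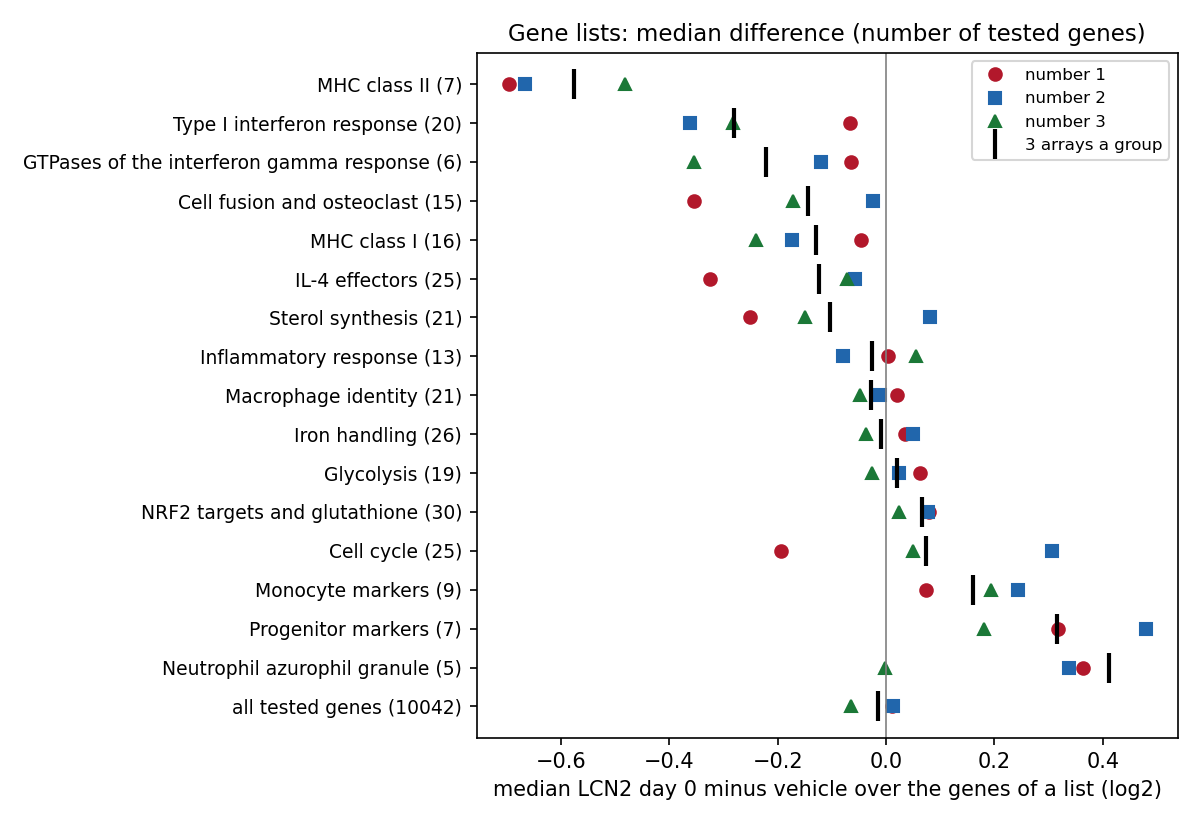
Median difference (LCN2 day 0 minus vehicle, log2) over the tested genes of 16 lists and over all tested genes; coloured points are the medians within title numbers 1 to 3, and black bars are medians of the group differences. MHC class II genes lie at -0.58 and below 0 at every number, azurophil granule genes at 0.41, and all tested genes at -0.015.

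The arrays with LCN2 from day 7 shared the vehicle arrays, so both comparisons are set side by side and the direct test of day 0 against day 7 is given. In that test limma called 0 of 10042 genes (177 at an unadjusted p under 0.05), and with the array number as a block it also called 0 (539), with a lowest adjusted p of 0.758. Against vehicle, the MHC class II median was -0.58 from day 0 and -0.13 from day 7, and day 0 minus day 7 was -0.42. H2-Ab1 read 10.53, 10.32 and 10.12 on the day 7 arrays, and day 0 minus day 7 was -0.54 ± 0.25 (SE, n = 3 per group). Dcstamp read 8.58, 8.67 and 8.82 with day 7, and its difference between the treatments was -0.77 ± 0.19; each day 7 array lay above each day 0 array. Taf7 read 5.83, 5.96 and 6.08 with day 7, and differed between the treatments by -0.67 ± 0.12. H2-Ab1, Dcstamp and Taf7 were among the genes named for low day 0 values against vehicle. Day 0 minus day 7 uses the same day 0 arrays, so that choice favours values below 0 and these are a description.

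For the type I interferon genes, the median against vehicle was -0.28 from day 0 and -0.26 from day 7, and day 0 minus day 7 was -0.03. Zbp1 read 5.63, 5.93 and 6.08 with day 7, and the 95% interval of day 0 minus day 7 ran from -0.30 to 0.34. Ly6c2, at 0.70 from day 0 and 0.67 from day 7 against vehicle, differed between the treatments by 0.03 ± 0.60 (SE, n = 3 per group). The treatments differ in time and possibly in dose, which cannot be told apart here.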

How the data were processed

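RNA of 9 samples was measured on expression arrays, of which 6 enter the comparison. The authors deposited log2 expression values for 22203 probe sets, made by RMA in oligo, per the submitters' processing notes; versions are not given in the sources used here. RMA corrects background, equalises the arrays' distributions and summarises probes on the log2 scale. No further normalization was applied.

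Of the probe sets, 19572 carried 1 symbol, 0 several and 2631 none, and all named probe sets were matched to RefSeq. Genes whose mean over 9 arrays fell below the median of all probe sets (5.66) were left out as dim, which left 10042. Precision is limited by how many arrays there are. The test was limma 3.58.1 in R 4.3.3, using 1 mean per group, all 9 arrays and moderated variances, with Benjamini-Hochberg adjustment over all genes tested and a threshold of 0.05. The fit was tested on simulated data.

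Deviations from group means of arrays with equal title numbers correlated at 0.156 to 0.82 (9 of 9 above 0.1). The titles' numbers were taken to pair the arrays, but these values set apart only the arrays numbered 1. The LCN2 day 0 array numbered 2 correlated at 0.687 with the vehicle array numbered 3 and at 0.565 with that numbered 2. The pairing of numbers 2 and 3 thus rests on the titles alone. Arrays of other numbers correlated at -0.754 to 0.687. Named genes were the 12 per direction with the largest weakest same-number difference, the 8 per direction with the smallest p in the blocked model, up to 5 per list by p, and a fixed set of LCN2, class II, IL-4, macrophage and iron genes. The comparison's members, the 59 gene lists and this rule were chosen with earlier results of these data known. Lists are described by counts and medians, with no test. Alternatives were the block, the arrays used, filters on dim genes, normalization, moderation, array weights and leaving out each array; the block combined with leaving out an array number was added after seeing the data. The promoter motif letters were shortened after a longer form of the X box and ISRE letters had been searched in these promoters.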

Additional observations from a re-analysis of the deposited data

How the results depend on the processing

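limma called 0 genes in all 23 alternatives run. With the title number as a replicate block, the count of genes at an unadjusted p under 0.05 was 497 in place of 142, with 0 called in both. The naming rule gave 285 tested genes, and only part of them were run here. Of 112 named genes run, 100 kept the sign of their difference in every alternative. Many were named for a shared sign or a small p on this contrast, which favours a kept sign, so this count is a description. The other 12 turned when a single array was left out, which unbalances the title numbers. Their ranges over single arrays left out were -0.36 to 1.16 for Ngp, -0.096 to 1.06 for S100a8, -0.33 to 1.03 for Lcn2, -0.13 to 0.42 for Arg1, -0.31 to 0.099 for Retnla, -0.26 to 0.71 for Chil3, -0.081 to 0.093 for Adgre1, -0.13 to 0.52 for Tfrc, -0.27 to 1.04 for Ly6c1, -0.087 to 1.02 for Mpo, -1.32 to 0.36 for Mmp9 and -0.13 to 1.09 for Ltf. Adgre1, at 0.00035 with all arrays, was also -0.059 without the arrays numbered 1 (with or without the replicate block), -0.030 with the block and without the arrays numbered 2, -0.010 with each array's median subtracted, -0.0084 after quantile normalization and -0.045 with array weights. Arg1 was -0.026 with the block and without the arrays numbered 2.

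The share of genes whose groups did not overlap was 5.57% to 12.7% lower and 4.22% to 9.34% higher when single arrays were left out, and 21.2% and 13.8% without the arrays numbered 1, where fewer arrays need to separate. With no filter on dim genes it was 3.33% higher. The share with all same-number differences lower was 24.8% to 29.8% without single arrays and 28.5% without the arrays numbered 1, and for higher 20.6% to 29.9% and 20.6%. With 3 arrays a group and a median SE of 0.162 (0.116 with the block), differences near the median size of 0.085 could not be shown. Genes near the dim floor, such as Taf7 and Ift88, are read with little signal over background.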

Other observations

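Of the eicosanoid enzymes, 15 were tested and had a median of 0.07. Hpgds, which makes prostaglandin D2, read 9.43, 10.12 and 10.20 with vehicle and 9.89, 10.52 and 10.42 with LCN2 from day 0, higher at each number with overlapping groups. Pf4, platelet factor 4, read 10.77, 10.17 and 10.11 with vehicle and 11.17, 10.47 and 10.55 with LCN2. Cmklr1, the chemerin receptor, differed by -0.36, -0.46 and -0.57 within the numbers. Jarid2, a subunit of Polycomb repressive complex 2, read 8.73, 8.93 and 8.72 with vehicle and 8.37, 8.53 and 8.27 with LCN2, without overlap. Sfxn2, a mitochondrial carrier, differed by -0.35, -0.49 and -0.51, and Pus3, a pseudouridine synthase of transfer RNA, by -0.67, -0.25 and -0.71. None of these passed the adjusted threshold of limma across all genes.

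Outside the genes tested, 1037 probe sets with no symbol lay above the dim floor. limma called 0 of them, with 9 at an unadjusted p under 0.05. Of the 9463 dim genes it also called 0, with 265 at an unadjusted p under 0.05.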
